A study of Mus musculus with 4 samples.

Results

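The colony-stimulating factors and their receptors were followed through the liver of mice of 2 genotypes, A/A and S/S, before and after tumor necrosis factor (TNF). The 8 genes were chosen by symbol among the 55414 gene rows of the count matrices: the ligands Csf1, Il34, Csf2 and Csf3 and the receptor chains Csf1r, Csf2ra, Csf2rb and Csf3r. Each symbol matched 1 row. The rule of choice was the symbol and held no measured value, but the members were chosen with earlier results of these data known. The data are single-cell RNA counts from 4 libraries. For each genotype 1 library was made at baseline and 1 at 3 h after 500 ng of TNF was given into the peritoneum. Each library held the cells of 2 pooled mice 2 months old, and the letters A and S are not spelled out in the labels. Livers were perfused and digested in place, spun at low speed to keep the non-parenchymal cells, cleared of dead cells on Ficoll and enriched by flow sorting for macrophages and live single cells, so the numbers of cells of each type are set partly by the sort. The study asked how the genotype and the TNF challenge act on the liver transcriptome.

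Colony-stimulating factors are secreted proteins that keep myeloid cells alive and drive their growth and maturation. CSF1 (M-CSF) and IL-34 both bind the receptor tyrosine kinase CSF1R, on which resident macrophages such as Kupffer cells depend. CSF2 (GM-CSF) binds its own alpha chain, CSF2RA, which signals together with the beta chain CSF2RB that interleukin 3 and interleukin 5 receptors also use, and CSF3 (G-CSF) acts through CSF3R, the main driver of neutrophil production. Endothelial and stromal cells are known to make CSF1 and, under inflammatory stimuli, CSF3, while activated T and NK cells are known sources of CSF2.

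A UMI (unique molecular identifier) stands for a single captured RNA molecule. The raw UMIs of each gene were summed over all barcodes of a cell type in a library and divided by all UMIs of those barcodes to give CPM, the usual count of a gene scaled to a fixed library total. With 1 library in each group there was no replicate, so no test was made and no difference can be set against the spread between mice. Intervals in brackets are exact 95% intervals, Poisson for counts and binomial (Clopper-Pearson) for shares and ratios, and cover counting error only. For a ratio the binomial is on the split of the UMIs between the 2 sides. A ratio of CPM is given on the log2 scale, where 1 is 2-fold, for a gene with at least 20 UMIs in the 2 libraries together and at least 20 barcodes of the cell type in each. A difference is called where it passed 2-fold.

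Where 4 values follow each other below, the first is the A/A baseline library, then come S/S baseline, A/A with TNF and last S/S with TNF. With barcodes under 300 genes or over 20% mitochondrial UMIs left out, 2830, 4366, 6452 and 5528 barcodes remained, with 20514857, 29710749, 53463285 and 53969689 UMIs. Between 10 and 24 kept barcodes of a library had a sequence that another library also held. The 6 cell types were gated on marker genes fixed together with the tests. The gates took 287, 31, 1106 and 549 endothelial barcodes, 373, 712, 707 and 212 T, 95, 199, 173 and 88 NK, 424, 479, 495 and 409 macrophage, 108, 104, 962 and 615 neutrophil and 50, 219, 326 and 464 monocyte barcodes. The S/S baseline endothelial gate is thus small. Defining markers were present in their gates: Stab2 stood at 361 to 1499 CPM in endothelial cells, Cd3e at 436 to 625 in T cells, Ncr1 at 439 to 844 in NK cells and Ccr2 at 228 to 1445 in monocytes. Clec4f, a Kupffer cell lectin, stood at 1685, 543, 1006 and 173 CPM in macrophages, whose gate therefore holds fewer Clec4f transcripts in S/S. The other macrophage markers were mixed at baseline. Vsig4 was lower in S/S (1063 in A/A and 440 in S/S), while Cd5l (1289 and 1999), C1qb (2495 and 3121) and Marco (383 and 1459) were higher. Ly6g stood at 22.5, 126, 122 and 165 CPM in neutrophils, lowest in A/A baseline. S100a8 and S100a9 were also lowest there, while Cxcr2, Mmp9 and Stfa2l1 were not. B cells served as the background, since none of the receptors or ligands is a B-cell marker, and free RNA reaches every barcode.

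The file headers name Cell Ranger 7.1.0 for both baseline libraries and 6.1.2 for both TNF libraries, so the software version and the treatment cannot be told apart. Genes with the longest introns read lower in the TNF libraries in all 6 gates except macrophages of S/S. In those the median log2 ratio was -0.14 under 1000 intron bases, 0.34 from 30000 to 100000 and -0.17 beyond. In A/A macrophages it was 0.05, -0.03 and -0.78. In neutrophils the median log2 ratio of TNF to baseline was 0.13 for genes with under 1000 intron bases and -2.38 for those with 100000 or more in A/A, and -0.18 and -2.32 in S/S. The median over genes of like intron length is therefore given beside those TNF ratios of the 8 genes that are below 0. Annotated introns sum to 954 bases in Csf3, 1597 in Csf2, 1602 in Csf2ra, 14141 in Csf1, 16282 in Csf3r, 20819 in Csf2rb, 25778 in Csf1r and 62137 in Il34.

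Each gene had its own distribution over the cell types. Combinations of gene, cell type and library were counted where they held at least 20 UMIs and lay at least 2-fold above B cells of the same library. Over 6 cell types and 4 libraries, 71 of 192 combinations did so. Csf1r and Csf3r did so in 15 of 24 combinations each, Csf2rb in 13, Csf2ra in 12, Csf1 in 11, Csf2 in 3, Csf3 in 2 and Il34 in 0. Csf2 in NK cells had under 20 UMIs in every library and was not counted. It stood 47.5-fold above B cells in S/S baseline, from 15 UMIs against 1. After TNF it stood at least 8.03-fold above them in A/A (18 UMIs) and at least 7.70-fold in S/S (12 UMIs). The receptor chains were read mainly in monocytes, macrophages and neutrophils. Csf1 was read in endothelial cells, neutrophils and T cells.

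**Figure D1:**
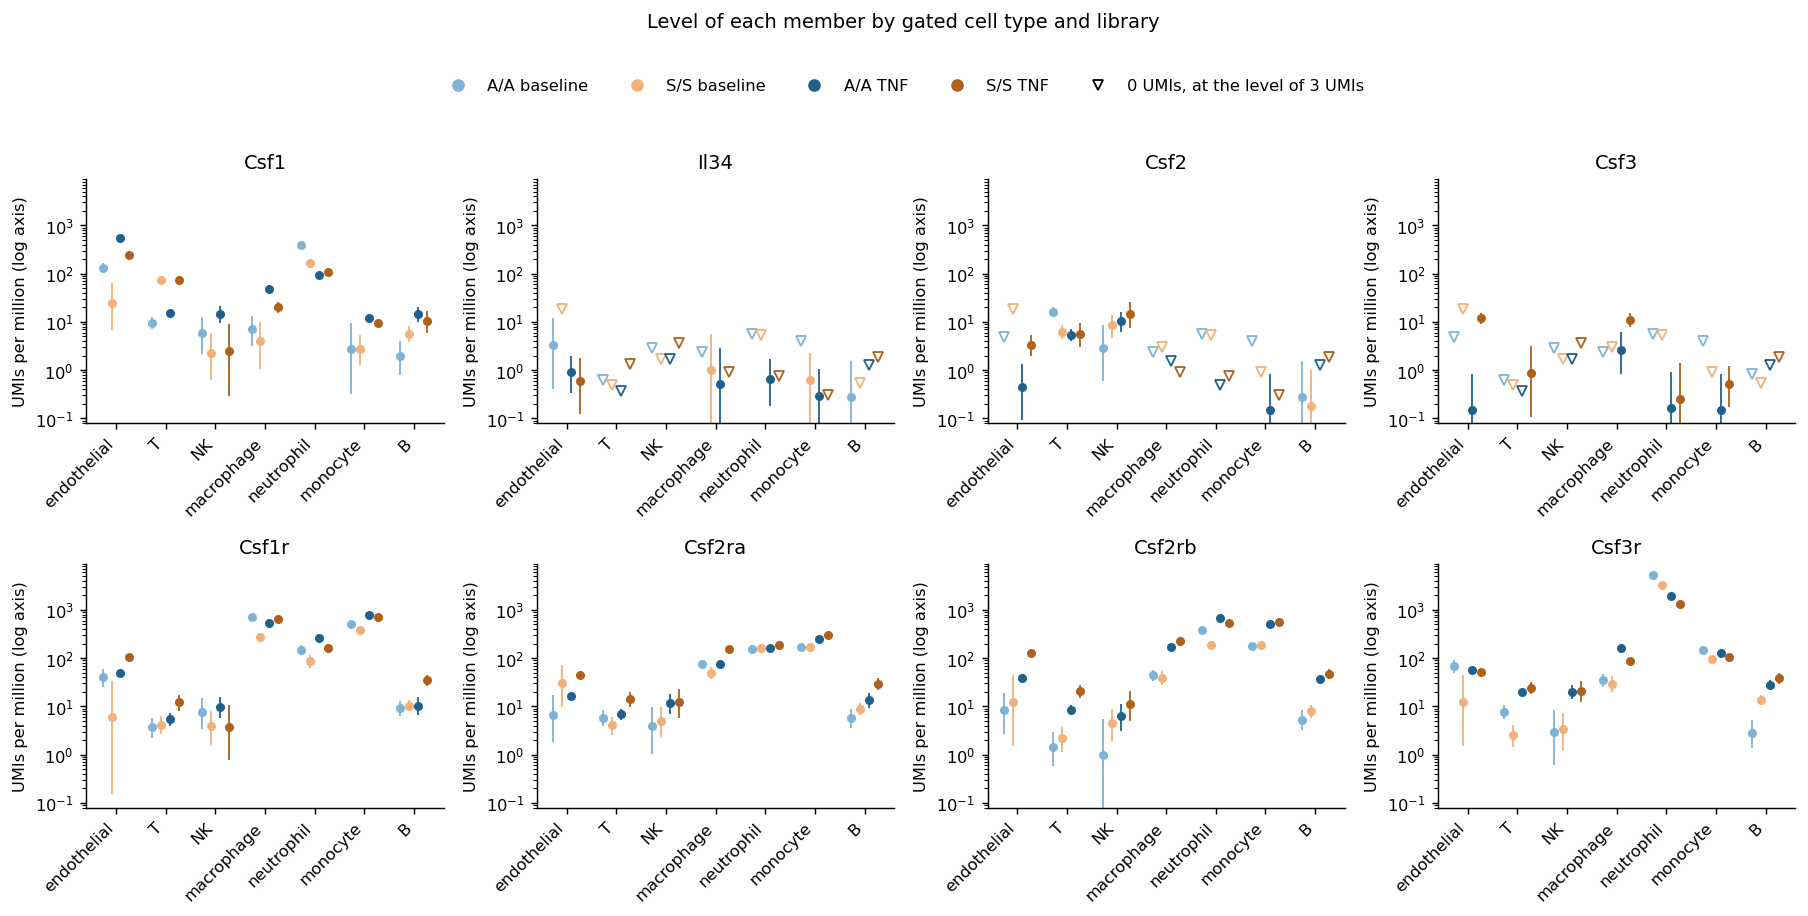
Level of each of the 8 genes (CPM, log axis) in the 6 gated cell types and in B cells, for the 4 libraries. Points are the summed UMIs of a cell type in a library, bars are exact 95% Poisson intervals, and triangles mark 0 UMIs, drawn at the level of 3 UMIs. Csf3r is highest in neutrophils of all 4 libraries, from 1297 to 5244 CPM, and Il34 is at or near 0 throughout.

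Csf1, the main growth factor of macrophages, had many more UMIs in the TNF libraries. Its UMIs numbered 470, 842, 6295 and 3311 in the whole libraries, and in such totals more cells of a type and more RNA per cell cannot be told apart. The cell type that held the largest share of Csf1 UMIs differed between libraries. It was the neutrophil gate in A/A baseline with 44.9% [40.3, 49.5], the T gate in S/S baseline with 51.4% [48.0, 54.9], and the endothelial gate after TNF with 58.9% [57.6, 60.1] for A/A and 37.5% [35.8, 39.1] for S/S.

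**Figure D2:**
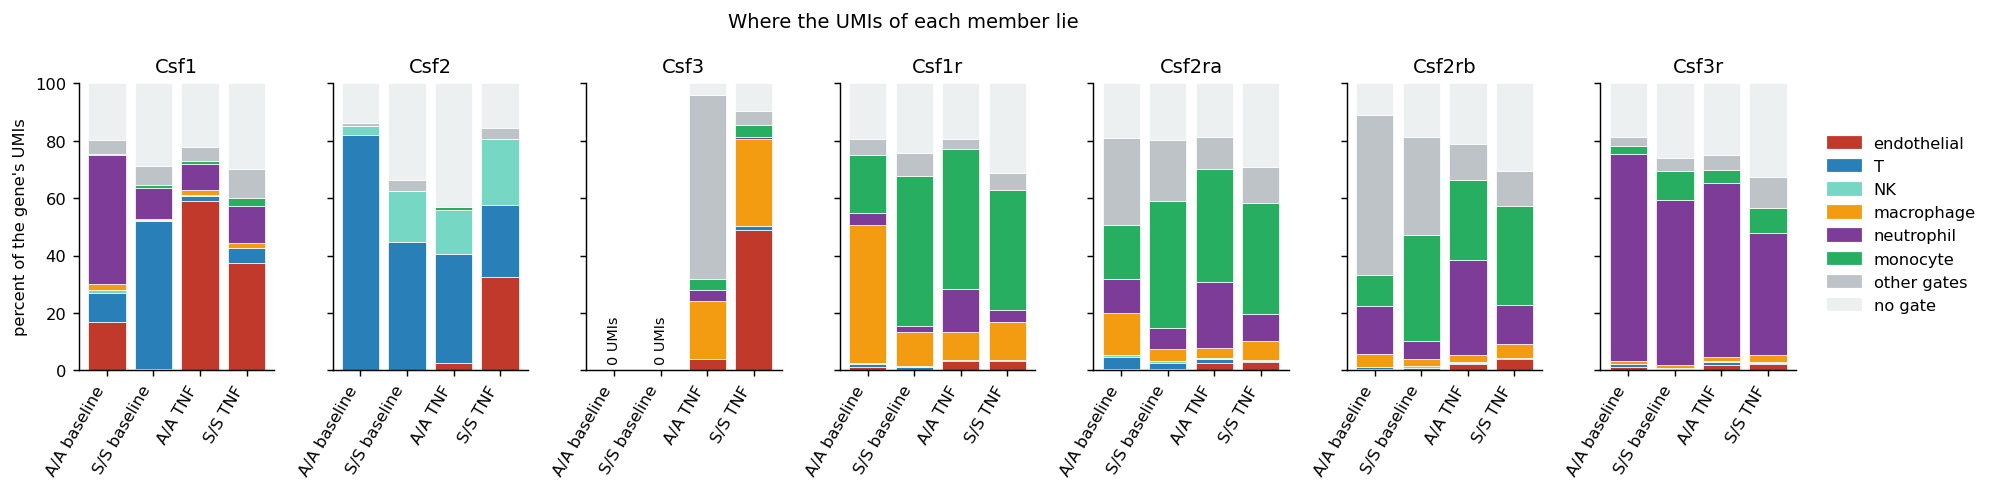
Percent of the UMIs of each gene that fell in each gate, by library, for the 7 genes other than Il34. Stacked bars sum to 100%, and Csf3 had 0 UMIs in both baseline libraries. Csf1 shifts from neutrophils (44.9%, A/A baseline) or T cells (51.4%, S/S baseline) to endothelial cells after TNF (58.9% and 37.5%).

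TNF came with more endothelial Csf1 in A/A and in S/S, and S/S stood below A/A at baseline and with TNF. It stood at 131 CPM (79 UMIs) in A/A baseline, 24.4 (4 UMIs) in S/S baseline, 554 (3705 UMIs) in A/A TNF and 247 (1240 UMIs) in S/S TNF. The log2 ratio of TNF to baseline was 2.08 [1.76, 2.42] for A/A and 3.34 [1.98, 5.22] for S/S, where the baseline value rests on 4 UMIs from 31 cells. Of S/S against A/A it was -2.42 [-4.33, -1.01] at baseline and -1.17 [-1.26, -1.07] after TNF. The A/A TNF library was the highest and no interval of the other 3 reached it. A Csf1 UMI was found in 13.6, 9.68, 62.8 and 55.6% of endothelial cells, against 1.42, 1.63, 10.5 and 6.79% of B cells. The endothelial cells had median depths of 1331, 1559, 3115.5 and 7039 UMIs and the B cells of 8100, 5809.5, 8468.5 and 7624. With each cell thinned to 1000 UMIs the shares were 9, 0, 32.4 and 18.8% in endothelial cells, the last pair with intervals of 29.5 to 35.4 and 15.5 to 22.5, and 0, 0.221, 0.881 and 0.629% in B cells. The 0 comes from 23 thinned S/S baseline cells and allows up to 14.8%. The thinned ratio of S/S to A/A after TNF was -0.80, under 2-fold. In endothelial cells with at least 5000 UMIs Csf1 stood at 604 CPM in A/A TNF and 247 in S/S TNF, and in shallower ones at 378 and 246. Monocyte markers summed to 71, 152, 148 and 438 CPM in the endothelial gate and macrophage markers to 414, 256, 258 and 489. Their part in the endothelial result was not tested.

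The sequences upstream of Csf1 and Csf2 are shown, picked after the TNF ratios were seen. Csf1 was over 2-fold higher after TNF in endothelial cells and macrophages of both genotypes, and lower in A/A neutrophils (-2.06). Csf2 was not higher in T cells after TNF, and had a ratio of 1.84 in A/A NK cells. TNF signals to the nucleus through NF-kappaB, which binds a G-rich and C-rich palindrome-like motif. RefSeq entries for Csf1 and Csf2 were found by symbol. Both windows are 250 bases before the RefSeq start, GRCm38.p6, minus strand, at chr3:107760470-107760719 for Csf1 and chr11:54249900-54250149 for Csf2. The submitters' processing notes name mm39, and no coordinate of the count files was used. Capitals mark matches of GGGNNNNNCC on either strand, a loose form of the NF-kappaB motif.
Csf1: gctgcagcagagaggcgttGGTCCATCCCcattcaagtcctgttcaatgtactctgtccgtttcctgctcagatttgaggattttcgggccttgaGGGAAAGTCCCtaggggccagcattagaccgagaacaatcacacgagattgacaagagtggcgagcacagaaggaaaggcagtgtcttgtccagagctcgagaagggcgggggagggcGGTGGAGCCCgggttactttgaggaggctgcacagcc
Csf2: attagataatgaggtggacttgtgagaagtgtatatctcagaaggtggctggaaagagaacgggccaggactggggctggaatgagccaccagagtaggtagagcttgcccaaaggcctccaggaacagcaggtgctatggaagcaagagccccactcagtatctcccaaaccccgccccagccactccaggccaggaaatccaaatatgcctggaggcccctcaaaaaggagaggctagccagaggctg

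The Csf1 window held 4 matches. Of these, 2 overlap on opposite strands, GGGAAAGTCC at bases 96 to 105 of the window on the gene's strand and GGGACTTTCC at bases 97 to 106 on the other, and the others lie at bases 20 to 29 and 214 to 223. The Csf2 window held 0 matches, and its RefSeq start lies 232 bases upstream of the start in the GENCODE annotation, so the window is not the one next to that start. Of 32851 promoter windows of the same length 15046 (45.8%) held a match. A match is a run of letters and not a measured binding site, and its part in any TNF ratio was not tested.

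T cells of S/S held over 2-fold more Csf1 than those of A/A, at baseline and with TNF, and Csf1 moved by less than 2-fold with TNF. It stood at 9.68 CPM (47 UMIs) in A/A baseline, 72.5 (433 UMIs) in S/S baseline, 15.2 (127 UMIs) in A/A TNF and 72.2 (166 UMIs) in S/S TNF. Both S/S libraries lay above both A/A libraries, with intervals that did not meet. The log2 ratio of S/S to A/A was 2.90 [2.47, 3.37] at baseline and 2.24 [1.90, 2.59] after TNF. The TNF ratio was 0.65 [0.16, 1.17] for A/A and -0.01 [-0.27, 0.26] for S/S, beside medians of -0.01 and -0.14 for genes of like intron length. Thinned to 1000 UMIs, 1.61 [0.593, 3.47], 7.50 [5.67, 9.69], 1.84 [0.984, 3.13] and 4.25% [1.96, 7.91] of T cells held a Csf1 UMI, so that after TNF the thinned shares of the genotypes overlap in their intervals. At full depth the shares were 6.43, 18.7, 10.2 and 16.5%. NK markers summed to 528, 2273, 720 and 1683 CPM in the T gate, higher in the S/S libraries, and Csf1 in the NK gate itself was 5.78, 2.26, 14.4 and 2.45 CPM. The part of NK-marked cells in the T-gate result was not tested.

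Within the T gate the S/S level was read in cells with Cd8a or Cd8b1 and no Cd4 UMI. Csf1 stood at 17.6, 142, 15.0 and 165 CPM in these CD8 barcodes, which numbered 67, 315, 152 and 93. It stood at 6.55, 5.23, 17.9 and 4.93 CPM in the 160, 232, 251 and 57 CD4 barcodes, where no library exceeded 20 CPM. CD8 barcodes with a Csf1 UMI numbered 6, 107, 14 and 28. The CD8 barcodes of S/S also held more Pdcd1 (the checkpoint receptor PD-1), at 25.8, 204, 23.9 and 224 CPM, and more Havcr2 (TIM-3), at 5.43, 65.5, 5.39 and 67.8 CPM. These genes were chosen after their values were seen. Of the CD8 barcodes with a Csf1 UMI, 3 of 6, 101 of 107, 6 of 14 and 23 of 28 also held a Pdcd1 UMI. Of all CD8 barcodes, 10 of 67, 162 of 315, 18 of 152 and 39 of 93 held one. These counts are at full depth, and the part of barcode depth in the overlap was not tested.

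**Figure D3:**
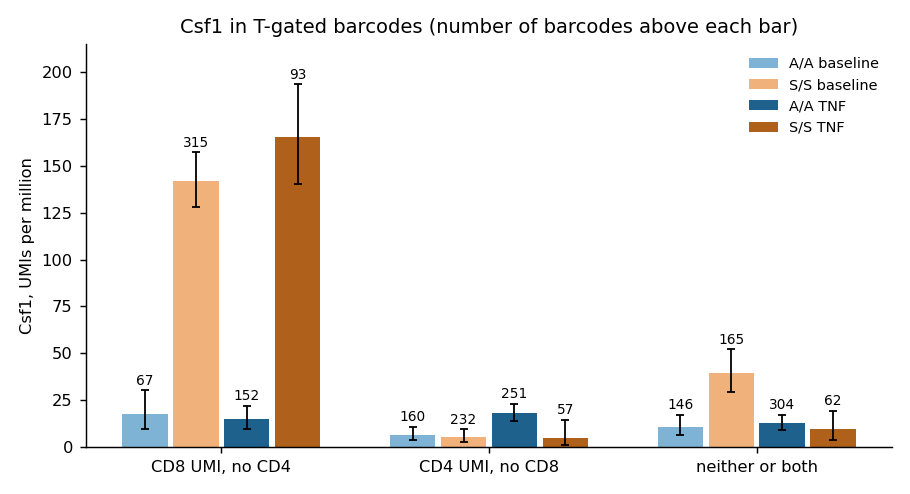
Csf1 (CPM) in barcodes of the T gate, split into CD8, CD4, and neither or both, in the 4 libraries. Bars start at 0, error bars are exact 95% Poisson intervals, and the number of barcodes stands with each bar. The CD8 bars of S/S stand at 142 (baseline) and 165 (TNF), those of A/A at 17.6 and 15.0.

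Neutrophil Csf1 was highest in A/A baseline. It stood at 395 CPM (211 UMIs) in A/A baseline, 164 (91 UMIs) in S/S baseline, 94.9 (571 UMIs) in A/A TNF and 108 (420 UMIs) in S/S TNF. The log2 ratio of TNF to baseline was -2.06 [-2.29, -1.82] for A/A and -0.61 [-0.94, -0.26] for S/S, beside medians of -0.44 and -0.67 for genes of like intron length. The S/S ratio was thus close to the median of such genes and the A/A ratio was below it. S/S stood below A/A at baseline (-1.27 [-1.64, -0.91], and -0.69 with cells thinned to 1000 UMIs) and within 2-fold of it after TNF (0.18). Neutrophils with a UMI of Ngp, Camp or Ltf, the secondary granule genes of immature neutrophils, numbered 5 of 108, 19 of 104, 359 of 962 and 249 of 615. In neutrophils without any of these UMIs Csf1 stood at 396, 227, 130 and 171 CPM. Macrophage markers summed to 985, 598, 191 and 182 CPM in the neutrophil gate, and their part in the result was not tested.

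Macrophages and monocytes held little Csf1 at baseline and more after TNF. Macrophage Csf1 was 7.03 CPM (9 UMIs), 3.94 (4), 47.9 (92) and 20.04 (67), with log2 ratios of 2.77 [1.78, 3.94] for A/A and 2.35 [0.92, 4.26] for S/S, and S/S below A/A after TNF at -1.26 [-1.73, -0.79]. That difference was under 2-fold with thinned cells (-0.78) and with the stricter gate (-0.95). Monocyte Csf1 was 2.68 CPM (2 UMIs), 2.79 (9), 11.96 (81) and 9.41 (91), with log2 ratios of 2.16 [0.26, 5.23] and 1.75 [0.77, 2.93]. Of these the monocyte values after TNF lay near the B-cell values of 14.6 and 10.2 CPM and cannot be read as above background. The macrophage values after TNF were 3.28-fold above B cells in A/A and 1.97-fold, under 2-fold, in S/S. Endothelial markers summed to 451, 122, 653 and 222 CPM in the macrophage gate, higher in A/A at both times as macrophage Csf1 was, and their part in it was not tested.

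Il34, the other CSF1R ligand, was hardly read. It had 4, 21, 35 and 13 UMIs in the whole libraries, and in S/S baseline 76.2% of them lay in 1 barcode outside every gate. T and NK cells had 0 Il34 UMIs in all 4 libraries, where 3 UMIs would be 0.36 to 3.67 CPM. The highest count in a gate was 6 UMIs, in A/A TNF endothelial cells, or 0.898 CPM. No Il34 ratio could be formed.

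Csf2 was read in T and NK cells and was not higher in T cells after TNF. In T cells it stood at 16.1 CPM (78 UMIs) in A/A baseline, 6.19 (37 UMIs) in S/S baseline, 5.40 (45 UMIs) in A/A TNF and 5.66 (13 UMIs) in S/S TNF. A/A baseline was the highest and the others lay within each other's intervals. The log2 ratio of TNF to baseline in A/A was -1.57 [-2.14, -1.03], beside 0.41 for genes of like intron length, and that of S/S to A/A at baseline was -1.38 [-1.98, -0.79]. A single T barcode held 18 of the 95 Csf2 UMIs of the A/A baseline library. NK cells held 2.89 CPM (3 UMIs), 8.46 (15), 10.4 (18) and 14.7 (12). The NK ratio in A/A was 1.84 [0.06, 4.25] from 3 baseline UMIs, and 61.1% of the A/A TNF UMIs lay in 1 barcode. In S/S it was 0.79 with an interval that spanned 0, from -0.43 to 1.99. Macrophages and neutrophils had 0 Csf2 UMIs in all 4 libraries, where 3 UMIs would be 0.499 to 5.62 CPM. Endothelial cells of S/S TNF had 17 UMIs, of which 94.1% lay in 1 barcode.

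Csf3 was read after TNF alone. It had 0 UMIs in both baseline libraries, 25 in A/A TNF, spread over 10 barcodes, and 123 in S/S TNF, spread over 47. Its sources in S/S TNF were endothelial cells, with 60 UMIs in 13 cells or 11.9 CPM [9.12, 15.4], and macrophages, with 37 UMIs in 13 cells or 11.1 CPM [7.79, 15.3]. One endothelial cell held 45% of the endothelial UMIs. In A/A TNF 16 of the 25 UMIs lay in 1 barcode gated as stellate, and macrophages held 5 UMIs in 5 cells, or 2.60 CPM, and endothelial cells 1 UMI. B cells had 0 Csf3 UMIs in all 4 libraries. At baseline 3 UMIs would be 2.34 and 2.96 CPM in macrophages and 4.97 and 18.3 CPM in endothelial cells, so the S/S TNF endothelial level lies under what the small S/S baseline gate could show. Against a floor of 3 UMIs per library, S/S macrophages were higher after TNF by at least 1.90 on the log2 scale. After TNF the log2 ratio of S/S to A/A was 2.09 [0.74, 3.79] in macrophages and 6.32 [3.79, 11.6] in endothelial cells, the latter from 1 A/A UMI. Of the S/S TNF macrophage UMIs, 36 of 37 were in cells that also held Clec4f, Vsig4 or Timd4, markers of resident Kupffer cells. Of the 37, 11 lay in 1 barcode of 44848 UMIs, where the median of the gate was 2968. The share of all macrophages with such a marker was not set beside this, and the part of depth was not tested.

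Csf1r, the receptor of CSF1 and IL-34, was read in macrophages and monocytes. In macrophages it stood at 701 CPM (897 UMIs) in A/A baseline, 275 (279 UMIs) in S/S baseline, 538 (1033 UMIs) in A/A TNF and 647 (2163 UMIs) in S/S TNF. S/S baseline was the lowest by a margin that no interval bridged. TNF and baseline differed in opposite directions in the genotypes, with log2 ratios of -0.38 [-0.51, -0.25] for A/A, under 2-fold, and 1.23 [1.05, 1.42] for S/S. Genes of like intron length had medians of 0.11 and 0.15 there. S/S stood below A/A at baseline (-1.35 [-1.55, -1.15]) and within 2-fold of it after TNF (0.27). The low S/S baseline value was alike in macrophages with and without a Clec4f, Vsig4 or Timd4 UMI. It was 671, 275, 533 and 604 CPM in those with one and 828, 275, 614 and 703 CPM in those without. Thinned to 1000 UMIs, 45.5 [40.5, 50.7], 18.8 [14.9, 23.2], 37.3 [32.7, 42.2] and 36.5% [31.5, 41.7] of macrophages held a Csf1r UMI, against 64.2, 30.9, 57.0 and 61.4% at full depth, and 0.239, 0.774, 1.76 and 0.629% of thinned B cells did. Macrophages had median depths of 2292.5, 1502, 2451 and 2968 UMIs. Monocyte markers summed to 326, 475, 2143 and 2398 CPM in the macrophage gate, higher after TNF in both genotypes, and their part in the S/S ratio was not tested.

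Monocyte Csf1r was nearer the same level in all 4 libraries. It stood at 503 CPM (376 UMIs), 377 (1217), 765 (5182) and 700 (6768), with log2 ratios of TNF to baseline of 0.60 for A/A and 0.89 for S/S, both under 2-fold. The S/S ratio passed 2-fold when scaled so that the median gene was at 0 (1.16) and less the median of genes of like intron length (1.04). Neutrophils held 150, 86.4, 264 and 164 CPM, with ratios of 0.82 and 0.92. Genes of like intron length had medians of -0.44 and -0.67 there, and less that median the neutrophil ratios were 1.25 and 1.59. Endothelial cells held 39.7 CPM (24 UMIs), 6.09 (1), 49.5 (331) and 107 (536). T, NK and B cells held 3.67 to 34.9 CPM, the background of this gene.

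Csf2ra, the ligand-binding chain for CSF2, was within 2-fold in monocytes and neutrophils in each comparison and was higher in S/S macrophages after TNF. It stood at 169, 166, 249 and 307 CPM in monocytes and at 154, 158, 162 and 185 CPM in neutrophils, with TNF ratios of 0.56 [0.30, 0.84] and 0.89 [0.75, 1.02] in monocytes and of 0.07 and 0.22 in neutrophils. Scaled so that the median gene was at 0, the S/S ratios were 1.16 in monocytes and 1.03 in neutrophils, past 2-fold. With cells thinned to 1000 UMIs the S/S monocyte ratio was 1.14. In macrophages it stood at 76.5 CPM (98 UMIs), 50.3 (51), 76.1 (146) and 157 (524). The macrophage ratio was -0.01 for A/A and 1.64 [1.22, 2.08] for S/S, and S/S stood above A/A after TNF at 1.04 [0.78, 1.32]. The genotype difference after TNF was under 2-fold with cells thinned to 1000 UMIs (0.62), with a pseudocount of 10 CPM (0.95) and with a marker lead of 2 times (0.84). The median of genes of like intron length was 0.07 for A/A and -0.09 for S/S. The monocyte markers, which were higher in the macrophage gate after TNF, mark cells that hold Csf2ra, and their part in the macrophage ratios was not tested. Conventional dendritic cells, gated the same way, held 109 to 154 CPM and B cells 5.87 to 29.2.

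Csf2rb, the common beta chain, was higher after TNF in both genotypes in macrophages, monocytes and endothelial cells. Macrophages held 43.7 CPM (56 UMIs), 39.4 (40), 171 (329) and 229 (764), with log2 ratios of 1.97 [1.56, 2.41] for A/A and 2.53 [2.08, 3.03] for S/S. Monocytes held 175 CPM (131 UMIs), 187 (603), 507 (3432) and 566 (5472), with ratios of 1.53 [1.28, 1.79] and 1.60 [1.48, 1.72]. With cells thinned to 1000 UMIs the A/A monocyte ratio was 0.80, under 2-fold. Monocyte markers summed to 326, 475, 2143 and 2398 CPM and neutrophil markers to 73, 343, 2383 and 815 CPM in the macrophage gate, both cell types hold Csf2rb, and their part in the macrophage ratios was not tested. In macrophages and monocytes the baseline libraries of the 2 genotypes lay within each other's intervals and both TNF libraries lay above them. Neutrophils held 388 CPM (207 UMIs), 189 (105), 672 (4042) and 544 (2125), with ratios of 0.79 for A/A and 1.53 [1.24, 1.82] for S/S, and S/S below A/A at baseline (-1.04 [-1.39, -0.69]). Less the median of genes of like intron length, the A/A ratio in neutrophils was 1.23, past 2-fold. Endothelial cells held 8.28 CPM (5 UMIs), 12.2 (2), 37.9 (253) and 128 (645), with S/S above A/A after TNF at 1.76 [1.55, 1.98]. B cells held 5.31, 7.83, 37.0 and 47.0 CPM, so the A/A TNF endothelial value was not above the B-cell level and the S/S TNF value was. Plasmacytoid dendritic cells, gated the same way, held 145 to 185 CPM in all 4 libraries.

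Csf2rb2, the paralog that serves the interleukin 3 receptor in mice, lies beside Csf2rb and was followed with it. Both are on chromosome 15 of GRCm38, Csf2rb at 78325752 to 78353847 on the plus strand and Csf2rb2 at 78282507 to 78305721 on the minus strand. Their longest transcripts share 892 words of 50 bases, 18.4% of those of Csf2rb, and 0 of the 500 words nearest the 3' end, where this assay reads. In endothelial cells Csf2rb2 stood at 0 CPM (0 UMIs), 12.2 (2), 29.9 (200) and 293 (1469), with S/S above A/A after TNF at 3.29 [3.08, 3.51]. A Csf2rb2 UMI was in 51.9% of S/S TNF endothelial cells, or 19.6% after thinning. Per UMI of Csf2rb these cells held 2.28 [2.07, 2.50] UMIs of Csf2rb2, A/A TNF endothelial cells 0.79, monocytes 0.145 to 0.155 and neutrophils 0.0435 to 0.118. In A/A baseline endothelial cells the proportion was 0, from 0 and 5 UMIs. The part of RNA from other cells in the endothelial values was not tested.

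Csf3r, the receptor of CSF3, was a neutrophil gene in every library and was lower after TNF in both genotypes. It stood at 5244 CPM (2799 UMIs) in A/A baseline, 3229 (1793 UMIs) in S/S baseline, 1936 (11645 UMIs) in A/A TNF and 1297 (5065 UMIs) in S/S TNF. Both TNF libraries lay below both baseline libraries and both S/S libraries below their A/A counterparts. The log2 ratio of TNF to baseline was -1.44 [-1.50, -1.38] for A/A and -1.32 [-1.39, -1.24] for S/S. Genes of like intron length had medians of -0.44 and -0.67, and all genes compared in neutrophils had medians of -0.54 and -0.81. Scaled so that the median gene was at 0, the ratios were -0.90 and -0.50, within 2-fold. The ratios of S/S to A/A were -0.70 and -0.58. In neutrophils without a UMI of Ngp, Camp or Ltf Csf3r stood at 5224, 4257, 2279 and 1591 CPM, the same order. S100a9, a calgranulin abundant in neutrophils, stood at 21526, 61500, 91778 and 95790 CPM in them.

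Outside neutrophils, Csf3r and the neutrophil markers were both higher in the TNF libraries in the macrophage and T gates. Macrophages held 35.1 CPM (45 UMIs), 29.6 (30), 160 (308) and 85.9 (287), with log2 ratios of 2.19 [1.74, 2.68] for A/A and 1.54 [0.99, 2.13] for S/S. With the stricter cell filter the S/S ratio was 0.93, under 2-fold. Neutrophil markers summed to 73, 343, 2383 and 815 CPM in the macrophage gate. T cells held 7.83, 2.51, 20.05 and 24.4 CPM and B cells 2.80, 13.7, 27.9 and 38.1, and neutrophil markers in the T gate summed to 70, 59, 651 and 754 CPM. Per 1000 UMIs of S100a9 there were 244, 52.5, 21.1 and 13.5 UMIs of Csf3r in neutrophils, 286, 208, 31.8 and 31.3 in B cells, 1216, 150, 130 and 190 in macrophages and 18500, 459, 494 and 703 in monocytes. In T cells the proportions were 745, 95.5, 60.6 and 69.2. The A/A baseline values of macrophages and monocytes rest on 37 and 6 UMIs of S100a9. The proportions of all the other gated types, and of B cells as the background, exceeded the neutrophil one in all 4 libraries. The part of neutrophil RNA in the macrophage and T-cell ratios was not tested. Monocyte Csf3r itself was 149, 97.6, 127 and 106 CPM, all within 2-fold. In endothelial cells, which held 67.9, 12.2, 57.9 and 51.0 CPM, 80.5% of the A/A baseline UMIs lay in 1 cell.

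Over the 6 cell types TNF was accompanied by more calls upward than downward among these genes. In A/A 31 pairs of gene and cell type could be compared, of which 14 were over 2-fold higher after TNF, 3 were lower and 14 were within 2-fold. Over all genes compared in the same cell types 14.7% were called higher and 22.1% lower. In S/S 29 pairs could be compared, of which 18 were higher, 1 was lower and 10 were within 2-fold, against 11.3% of all genes higher and 25.8% lower. Of the higher pairs, 11 for A/A and 18 for S/S had intervals that left out equality. Of these, 5 and 10 also held at least 20 UMIs and were 2-fold above B cells in the TNF library. The 3 lower pairs in A/A were Csf1 and Csf3r in neutrophils and Csf2 in T cells, and the 1 in S/S was Csf3r in neutrophils. A pair needs 20 UMIs over both libraries, so some pairs, such as Csf3 in S/S macrophages with 0 baseline UMIs, were compared only through the library where the gene was high, and the counts of pairs called give no support on their own.

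**Figure D4:**
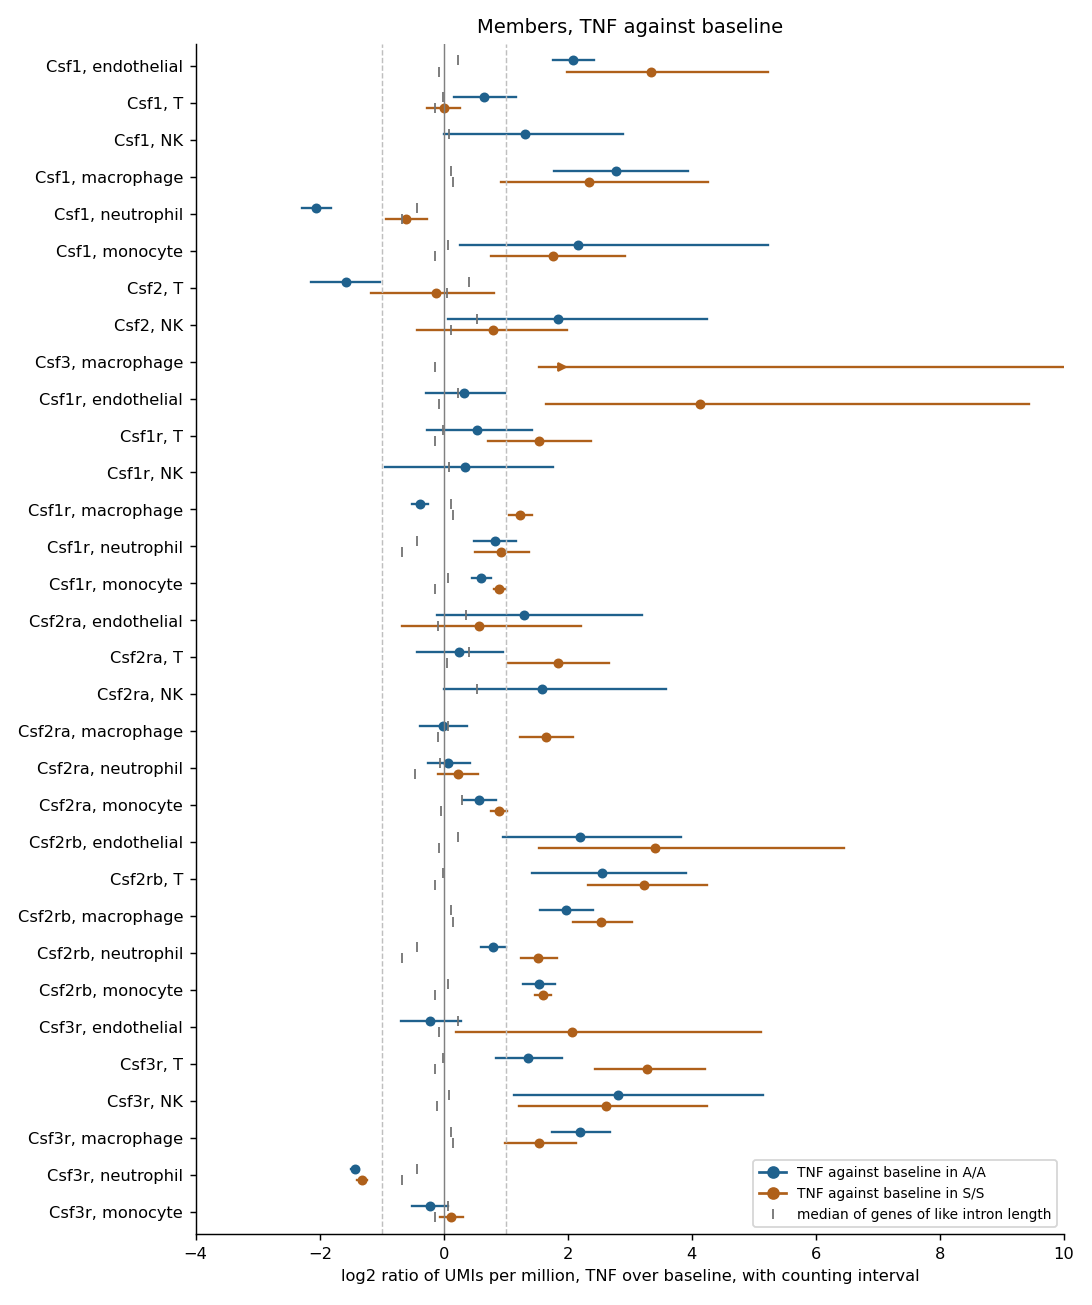
Log2 ratio of TNF to baseline for each gene and cell type, in A/A mice and in S/S mice, with exact 95% binomial intervals. Dashed lines mark 2-fold, gray ticks the median of genes of like intron length, and an arrowhead a lower bound. Macrophage Csf1r lies at -0.38 for A/A and 1.23 for S/S, and neutrophil Csf3r at -1.44 and -1.32.

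Between the genotypes the calls pointed down in S/S at baseline and mostly up after TNF. At baseline 22 pairs could be compared, of which 1 was over 2-fold higher in S/S (T-cell Csf1), 8 were lower and 13 were within 2-fold. Over all genes 10.1% were called higher and 6.54% lower. Of the 8 lower pairs 3 were in endothelial cells, where 7.91% of all genes were called lower and whose S/S baseline gate held 31 barcodes. With the barcode that held the most UMIs of the gene left out, 5 of these 8 calls were kept, and with cells thinned to 1000 UMIs 2 were. The T-cell Csf3r ratio was -1.64, and -0.30 without that barcode. After TNF 35 pairs could be compared, of which 11 were higher in S/S, 4 were lower and 20 were within 2-fold, against 5.37% of all genes higher and 5.17% lower. Of the 11 higher pairs 5 were in endothelial cells, 4 in T cells and 2 in macrophages, where 6.33%, 5.66% and 5.61% of all genes were called higher. Neutrophils and monocytes had none in either direction, against 5.59% and 5.70% of all genes higher and 4.61% and 3.07% lower. Of the 11, 6 lay also 2-fold above B cells. Csf1r, Csf2ra and Csf2rb in T cells, which are among the 11, stood below the B-cell level in S/S TNF. A pair needs 20 UMIs over both libraries, so some were compared only through the library where the gene was high. Endothelial Csf3, with 60 UMIs in S/S and 1 in A/A, is such a pair. The counts of pairs called between the genotypes give no support on their own. The comparisons share libraries, so their ratios are not independent of one another.

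**Figure D5:**
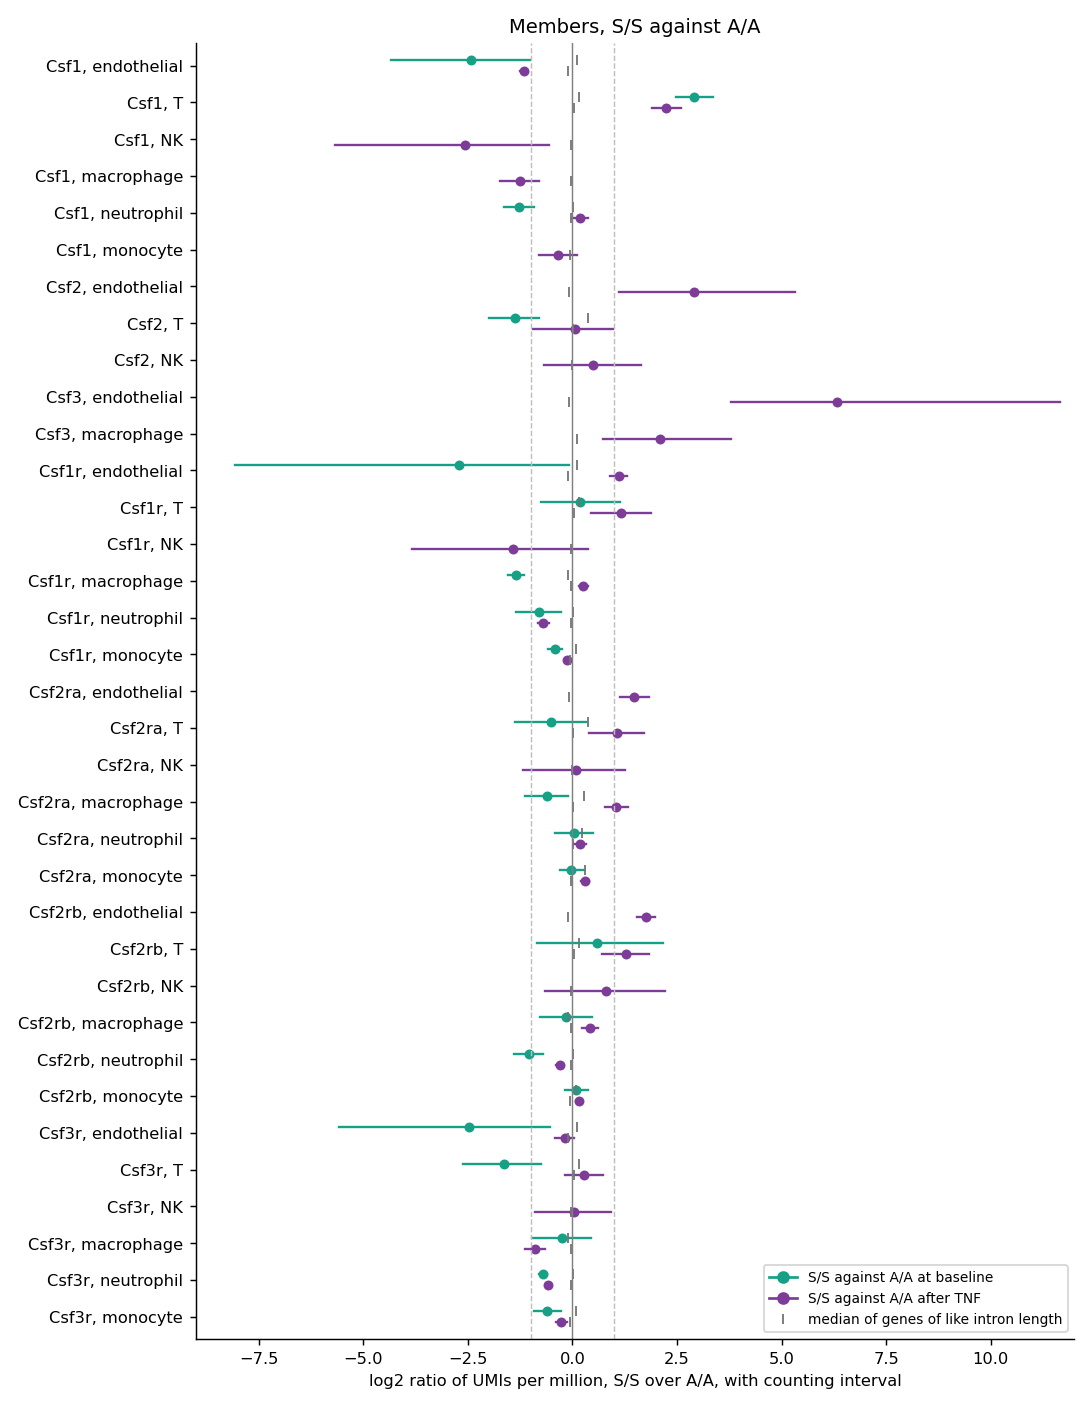
Log2 ratio of S/S to A/A for each gene and cell type at baseline and after TNF, with exact 95% binomial intervals and dashed lines at 2-fold. T-cell Csf1 is higher in S/S at both times (2.90 and 2.24), endothelial Csf1 lower at both (-2.42 and -1.17), and macrophage Csf1r lower at baseline alone (-1.35, then 0.27).

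Genes that act below these receptors were counted in macrophages and neutrophils. Over all genes, 16.8% were called higher and 17.1% lower after TNF in A/A macrophages, and 22.4% and 16.1% in S/S macrophages. In neutrophils 14.1% were higher and 37.2% lower for A/A, and 10.2% and 43.9% for S/S. Of 15 listed genes of the JAK and STAT relay used by CSF2 and CSF3 receptors, 13 could be compared in A/A macrophages and 14 in S/S macrophages, and 5 were over 2-fold higher after TNF and 1 lower in each. Their median log2 ratio was 0.58 and 0.62, against -0.01 and 0.10 for all genes. Socs3, the feedback inhibitor of CSF3R and interleukin 6 family receptors, stood at 4.69, 9.86, 128 and 164 CPM in macrophages, with ratios of 4.77 and 4.06. Pim1, a STAT-induced kinase, stood at 53.9, 43.4, 330 and 250 CPM, and Jak2 had ratios of 2.30 and 1.47. In neutrophils 14 genes could be compared in each genotype, of which 5 were higher in each and 4 and 3 were lower. Socs3 had ratios of 2.27 and 2.14 there, and Cish, a STAT5 target, of at least 2.55 for A/A and 4.24 [2.37, 7.29] for S/S, from 0 and 2 baseline UMIs. Stat5b had ratios of -2.44 and -2.37. Neutrophil genes with 30000 to 100000 intron bases had medians of -1.16 and -1.25, and those with more of -2.38 and -2.32. The intron lengths of the listed genes were not set beside their TNF ratios.

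The CSF1R relay was counted in the same way, and the lists were not compared by a test. Of its 12 listed genes, which carry the signal through PI3 kinase, ERK and CBL, 12 could be compared in macrophages. In A/A 0 were over 2-fold higher and 2 lower after TNF, with a median of -0.23, and in S/S 3 were higher and 0 lower, with a median of 0.23, a share near that of all S/S macrophage genes. The 3 were Dab2, Cbl and Pik3r1, at ratios of 1.62, 1.53 and 1.20. At baseline 3 of 12 were lower in S/S macrophages, with a median of -0.86 against -0.16 for all genes, of which 15.8% were called lower. In that comparison the median gene also fell with intron length, from 0.48 under 1000 intron bases to -0.48 from 30000 and -0.69 from 100000 bases on, where 22.0% and 31.5% of genes were called lower. After TNF 0 of 12 were called, where 5.61% of all macrophage genes were higher and 7.52% lower in S/S. Dab2, an endocytic adaptor, stood at 228, 82.8, 167 and 254 CPM in macrophages, which is the order of macrophage Csf1r but for S/S TNF above A/A baseline. In neutrophils 5 and 6 of 11 compared were lower after TNF, with medians of -0.76 and -1.08 against -0.54 and -0.81 for all genes.

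Of 5 listed genes of the beta chain family, 2 could be compared in macrophages, Csf2rb2 and Il3ra. Both were over 2-fold higher after TNF in A/A (1.28 and 1.17), and Csf2rb2 alone was in S/S (2.75, against 0.04 for Il3ra). Of 6 listed co-receptors and sheddases, 4 could be compared in A/A macrophages, with 0 higher and 2 lower, and 5 in S/S macrophages, with 2 higher and 1 lower. Among them Trem2 stood at 64.0, 202, 14.6 and 97.5 CPM in macrophages, higher in S/S at both times (1.66 and 2.74) and lower after TNF in both genotypes (-2.13 and -1.05). Adam17, the protease that sheds CSF1 and CSF1R, had ratios of 0.79 for A/A and 1.54 for S/S. Of 24 other growth factors of blood cells and their receptors, 14 could be compared in A/A macrophages and 13 in S/S macrophages, and 10 were higher in each, with 1 and 2 lower. Their medians were 1.37 and 1.71, and Osm, oncostatin M, had ratios of 2.92 and 4.30, from 3 and 1 baseline UMIs. Over all genes 16.8% were called higher in A/A macrophages and 22.4% in S/S macrophages. The UMI minimum is on both libraries together, so some listed genes were compared only through the library where they were high. The counts and medians of this list therefore give no support on their own. The same minimum held for every list. Of 15 myeloid transcription factors 12 could be compared in macrophages, and 6 were higher in each genotype, with 2 and 1 lower. Egr1, an immediate early factor below CSF1R, had ratios of 1.87 and 2.75. In neutrophils Cebpb, which drives emergency granulopoiesis, had ratios of 1.70 and 1.52. Cebpe, the factor of granule gene expression in immature neutrophils, stood at 11.2, 101, 3.32 and 16.1 CPM in neutrophils.

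Genes of similar level were sought over the 24 points of 6 cell types and 4 libraries, which share libraries and depth. Pearson's r is given as a description over 9312 genes. For Csf1 they were Itprip (0.85), Pdlim7 (0.82) and Sema6b (0.81), and for Csf2 Sh2d2a (0.90), Fasl (0.89) and Ifng (0.89), of which Ifng encodes interferon gamma. For Csf1r they were Mpeg1 (0.96), Clec12a (0.96) and Rab32 (0.94), for Csf2ra Pirb and Igsf6 (0.97 each), for Csf2rb Pirb (0.98), Ptafr (0.97) and Mefv (0.97), and for Csf3r Arg2, Cd33 and Acsl1 (0.95 each). Pirb was thus among the nearest genes of both chains of the CSF2 receptor. For Csf3, which was at 0 in most points, they were Ccl17 (0.81) and Arg1 (0.80).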

How the data were processed

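The authors deposited, for each library, a filtered 10x gene by barcode matrix of raw UMI counts, made with Cell Ranger 6.1.2 or 7.1.0 per the file headers. The chemistry was 3' v3.1 per the labels, and the build was mm39 per the submitters' processing notes. Whether introns were counted is not given in the sources used here. Barcodes under 300 genes or over 20% mitochondrial UMIs were left out. A barcode joined a cell type where at least 3 of its markers were on and their share was at least 1.5 times that of every other of 16 lists (141 markers). No doublet caller was run, and barcodes in which no list led by that margin fell outside every gate, while barcodes with some markers of another type can pass it. Counts were summed per library and gate, with exact Poisson and binomial intervals, in Python 3.11.15 with numpy 2.4.6, scipy 1.17.1 and matplotlib 3.10.9. The ratios and the gate were tested on simulated data. The named genes are all 8 members, up to 4 genes of each list with the largest absolute log2 ratio in macrophages or neutrophils, and the 3 genes of most similar level. Some genes that this rule names are not reported here. The members, lists and tests were chosen with earlier results of these data known. Alternatives are a stricter cell filter, stricter and looser gates, other scalings, thinned cells, shared or leading barcodes left out, pseudocounts and other UMI minima. Added after seeing the data were NK cells without T-cell receptor UMIs, a 2 times marker lead, centring on genes of like intron length, and leaving out endothelial cells.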

Additional observations from a re-analysis of the deposited data

Results flagged for a closer look

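Macrophage Csf1r moved in opposite directions with TNF in the genotypes, which is what marked it for a closer look. Its log2 ratio of TNF to baseline was -0.38 in A/A and 1.23 in S/S, each from 1 library per group. The difference between them was not tested, since no group has a second library.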

How the results depend on the processing

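No paired analysis was possible because each group has 1 library. Of 1447 ratios recomputed over 13 settings, 1343 moved by less than their counting interval, 104 moved by more, 0 changed sign after being called, and 74 could no longer be compared. The 71 combinations above B cells ranged from 69 to 72 over the 5 settings of filter, gate, scaling and shared barcodes run for levels. Thinning each cell to 1000 UMIs, which left fewer pairs to compare, gave 6 (A/A) and 8 (S/S) pairs higher after TNF in place of 14 and 18, 4 lower in S/S at baseline in place of 8, and 4 higher and 0 lower in S/S after TNF in place of 11 and 4. A pseudocount of 10 CPM gave 7 higher after TNF in A/A, 5 lower in S/S at baseline, and 4 higher and 1 lower in S/S after TNF. Scaling by the median gene, and centring on genes of like intron length, each gave 0 lower after TNF in S/S in place of 1. With no minimum on UMIs 4 pairs were higher in S/S at baseline in place of 1, and with a minimum of 50 UMIs 2 were lower in S/S after TNF. NK cells without T-cell receptor UMIs also gave 2 lower there. A marker lead of 2 times gave 7 higher in S/S after TNF. Without endothelial cells 5 were lower in S/S at baseline and 6 higher after TNF. Apart from the fewer pairs or cells that a setting leaves, the cause was not tested. Depth limits Il34, Csf2 and Csf3 and the S/S baseline endothelial gate.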

Other observations

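Cells outside the 6 gates also held these genes. Basophil and mast cell barcodes, 11 in A/A TNF, held Csf1 at 939 CPM (93 UMIs) and Csf2rb at 1050 CPM. Stellate and fibroblast barcodes, 16 in A/A TNF, held Csf1 at 408 CPM (20 UMIs). Plasmacytoid dendritic cells held Csf2rb2 at 141, 104, 156 and 154 CPM, and their Csf2rb2 UMIs per Csf2rb UMI were 0.76, 0.72, 0.97 and 0.99. In A/A baseline 43.0% of all Csf2rb UMIs lay in that gate. CD8 barcodes of the T gate held Gzma, the granzyme of cytotoxic cells, at 448, 3716, 760 and 2525 CPM and Tox, a factor of chronically stimulated T cells, at 358, 1146, 83.2 and 212 CPM. Both genes were chosen after their values were seen. Genes of the T gate with 100000 or more intron bases read lower after TNF. Their median log2 ratio was -1.68 for A/A, while S/S had -1.55. The intron length of Tox was not looked up, and its part in the lower Tox values after TNF was not tested.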
